A study of Mus musculus with 12 samples.

Results

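The listed gene segments of the T cell receptor (TCR) were followed across CD4 and CD8 T cells from lymph nodes (LN) of B6 and FlipFlop mice. Members were the genes whose symbol begins with Tra, Trb, Trg or Trd and then v, d, j or c. Of 12809 listed genes, 125 have a symbol that matches these letters, and 1 of them (Tradd, a TNF receptor adaptor) is no TCR segment, which left 124 members. They are 96 Trav and 21 Trbv variable (V) segments, 2 Trdv, 1 Trgv and the constant (C) segments Trac, Trbc1, Trbc2 and Trdc, and no joining or diversity segment was listed. Of the 124 members, 110 had at least 1 CPM (reads scaled to a common library total) in at least 3 of 12 libraries and were tested. All 21 Trbv and 83 of 96 Trav segments were among these. The 14 members that were too low to test were Trdv1, Trav3-4, Trav4d-3, Trav4n-3, Trav7d-5, Trav7n-5, Trav8-2, Trav9d-1, Trav12d-1, Trav12d-3, Trav12n-1, Trav13d-3, Trav13n-3 and Trav13n-4. Trgv2 and Trav2 were tested only because they reached 1 CPM in every library of a single group, FlipFlop CD8 and B6 CD8 respectively. Counting these, 10 tested members reached 1 CPM in fewer than 3 libraries outside the group with most such libraries. Of these, Trgv2, Trav2, Trav3-1 and Trav7-1 were called in some comparison. Their calls, and any lack of overlap between their groups, are a description wherever they enter a count.

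The study switched which coreceptor protein each gene locus encodes, to ask whether the locus or the protein sets T cell fate. RNA was sequenced from 4 groups of 3 libraries, all from female mice. B6 CD4 and B6 CD8 T cells came from C57BL/6 mice aged 10 weeks, whereas FlipFlop CD4 and FlipFlop CD8 T cells came from mice aged 14 weeks that carry both altered loci, a Cd4 locus encoding CD8 and a Cd8a locus encoding CD4. The altered Cd4 locus was made in B6 embryonic stem cells and the altered Cd8a locus in embryonic stem cells of another strain, and FlipFlop T cells carry the CD8.1 form. The age of the FlipFlop mice is that of the labels and lies above the range given in the study's methods for mice with no other age stated. Strain, altered loci and age cannot be told apart, and the number of animals behind a library is not given in the labels, so p-values measure the spread between these libraries, which may be technical. In GRCm38 the Cd4, Cd8a and Cd8b1 genes lie on chromosome 6, as do all listed Trbv segments (chr6:40891229-41558452), and Trav segments lie on chromosome 14. Which allelic form of the Trbv region FlipFlop mice carry was not tested.

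An alpha-beta TCR is built from an alpha chain (Trav, a joining segment and Trac) and a beta chain (Trbv, a diversity and a joining segment, and Trbc1 or Trbc2), so each T cell clone transcribes a V segment of each chain at high level. The V segment encodes the first and second loops of the binding site and the start of the third, and the chains that survive thymic selection are those that bind self MHC with the help of CD4 (MHC-II) or CD8 (MHC-I). In bulk RNA the share of a V segment therefore reflects how many cells use it and how much RNA each of them holds, and fewer cells and less RNA per cell cannot be told apart.

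Depth and labels were checked first. The table corresponds to 26570000 to 33116000 reads on listed genes per library, of which 11904 to 17918 fell on Trbv and 6086 to 10032 on Trav segments. In B6 CD4 the Cd4 level was 1022 ± 65.0 CPM (SD, n = 3 here and in all groups), and B6 CD8 had 1.46 ± 0.90 CPM of it. In B6 CD8 the Cd8a level was 1489 ± 15.3 CPM, and B6 CD4 had 0.946 ± 0.596 CPM. FlipFlop CD4 had Cd4 at 670 ± 43.6 CPM and Cd8b1, which keeps its own locus, at 1829 ± 169 CPM, whereas FlipFlop CD8 had Cd4 at 42.2 ± 1.33 CPM, Cd8a at 145 ± 11.7 CPM and Cd8b1 at 137 ± 12.9 CPM. The altered Cd4 locus encodes the beta chain of CD8 as well as the alpha chain. From which locus the Cd8b1 reads came was not tested. No library went against its label. B cell markers summed to 602 to 782 CPM over 7 genes, most of it Ighm.

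The V segments on which the results turn are shown first, as the exon that encodes the V domain (its last 300 bases where longer) in GENCODE M21 on GRCm38, 5′ to 3′ on the coding strand. Trbv12-1 (chr6:41113775-41114067) and Trbv12-2 (chr6:41119072-41119364) were the segments whose share of Trbv CPM differed most between B6 CD8 and B6 CD4 T cells on a log2 scale. Trbv31 came close to Trbv12-2 (1.96 and -1.98, CD4 minus CD8), and in percentage points Trbv31 differed more (9.25% in B6 CD4 and 2.31% in B6 CD8). Trbv12-1 and Trbv12-2 are close relatives that differ at 32 aligned positions (89.2% identity). Capitals mark where they differ in an alignment that holds gaps. The gaps are not shown, and a base set against a gap is marked in its own sequence alone.
Trbv12-1: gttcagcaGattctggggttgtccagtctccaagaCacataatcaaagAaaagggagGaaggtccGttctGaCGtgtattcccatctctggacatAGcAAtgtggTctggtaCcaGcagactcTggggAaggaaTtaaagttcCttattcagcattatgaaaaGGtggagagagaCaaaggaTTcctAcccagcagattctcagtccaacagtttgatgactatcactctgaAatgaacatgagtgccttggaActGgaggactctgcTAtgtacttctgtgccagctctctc
Trbv12-2: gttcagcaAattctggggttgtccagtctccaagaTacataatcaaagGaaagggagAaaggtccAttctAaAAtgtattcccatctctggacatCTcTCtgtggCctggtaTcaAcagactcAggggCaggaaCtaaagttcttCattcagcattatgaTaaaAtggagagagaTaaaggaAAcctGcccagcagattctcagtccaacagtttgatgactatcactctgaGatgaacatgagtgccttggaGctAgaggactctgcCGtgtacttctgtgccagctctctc

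Trbv29 (chr6:41271587-41271881), Trbv14 (chr6:41135320-41135616) and Trbv17 (chr6:41163262-41163556) also had their highest share in B6 CD8, and Trbv31 (chr6:41557693-41557984), the only listed Trbv segment on the minus strand and the only one beyond Trbc2, was lowest there. Capitals mark the cysteine codon at which the third loop begins, found as the last TGTGC or TGCGC of the coding strand within 30 bases of the 3′ end, which 106 of 117 Trav and Trbv segments (90.6%) hold.
Trbv29: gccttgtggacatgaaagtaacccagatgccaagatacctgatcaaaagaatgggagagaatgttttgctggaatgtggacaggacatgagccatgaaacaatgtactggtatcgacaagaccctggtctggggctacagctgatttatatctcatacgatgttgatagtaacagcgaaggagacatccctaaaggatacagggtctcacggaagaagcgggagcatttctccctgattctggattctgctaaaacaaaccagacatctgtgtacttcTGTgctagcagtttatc
Trbv14: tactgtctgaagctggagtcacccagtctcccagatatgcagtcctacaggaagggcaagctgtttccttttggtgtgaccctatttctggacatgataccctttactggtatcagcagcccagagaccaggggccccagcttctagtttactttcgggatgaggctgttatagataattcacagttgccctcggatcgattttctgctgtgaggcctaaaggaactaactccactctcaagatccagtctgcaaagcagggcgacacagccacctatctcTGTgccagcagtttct
Trbv17: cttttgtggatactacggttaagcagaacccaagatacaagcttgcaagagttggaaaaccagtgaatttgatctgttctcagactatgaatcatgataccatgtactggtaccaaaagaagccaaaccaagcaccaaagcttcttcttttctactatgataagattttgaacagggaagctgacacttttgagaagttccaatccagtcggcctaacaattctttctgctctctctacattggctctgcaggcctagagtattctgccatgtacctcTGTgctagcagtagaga
Trbv31: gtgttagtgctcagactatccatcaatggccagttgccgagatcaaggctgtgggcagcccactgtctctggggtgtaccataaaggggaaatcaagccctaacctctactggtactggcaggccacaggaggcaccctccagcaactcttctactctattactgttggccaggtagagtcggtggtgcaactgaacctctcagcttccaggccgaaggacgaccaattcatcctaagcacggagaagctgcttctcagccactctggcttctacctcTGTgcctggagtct

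The bases from this codon on, which the V segment lends to the third loop, are tgtgccagctctctc in both Trbv12 segments, tgtgctagcagtttatc in Trbv29, tgtgccagcagtttct in Trbv14, tgtgctagcagtagaga in Trbv17 and tgtgcctggagtct in Trbv31. Apart from the pair of Trbv12 segments, the 5 segments most raised in B6 CD8 resembled each other about as much as Trbv segments do in general. Their V exons had a median identity of 55.1% over 10 pairs, against 54.0% over all 210 Trbv pairs.

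Each V segment was expressed as its share of the summed Trbv or Trav CPM of its library, so that a change in total chain RNA does not enter. B6 CD8 T cells stood apart from the other 3 groups in V use, and FlipFlop CD4 and FlipFlop CD8 T cells both lay nearer to B6 CD4. The distance between libraries, taken as the share that would have to move from some segments to others, was 24.6 ± 0.745 percentage points of Trbv share between B6 CD4 and B6 CD8 (SD over 9 library pairs). It was 8.59 ± 1.10 points between FlipFlop CD4 and FlipFlop CD8. Libraries of the same group differed by 3.23 (B6 CD4), 3.47 (B6 CD8), 5.01 (FlipFlop CD4) and 5.44 points (FlipFlop CD8) on average over 3 pairs.

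FlipFlop CD4 was 8.12 ± 0.841 points from B6 CD4 and 22.6 ± 0.447 points from B6 CD8 in Trbv use. FlipFlop CD8 was 9.22 ± 0.893 points from B6 CD4 and 20.7 ± 0.957 points from B6 CD8. No library pair between FlipFlop and B6 CD4 was as far apart as any pair between FlipFlop and B6 CD8, with highest 10.4 and lowest 19.1 points. The order in Trav use was alike. FlipFlop CD4 was 8.62 ± 0.822 points from B6 CD4 and 20.4 ± 0.777 from B6 CD8, and FlipFlop CD8 was 12.5 ± 1.42 and 18.8 ± 1.18 points from them. Trav libraries of the same group differed more than those of Trbv, by 6.99 (B6 CD4), 10.0 (B6 CD8), 7.32 (FlipFlop CD4) and 11.5 points (FlipFlop CD8). Distances are a description over the members, without a test.

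**Figure D1:**
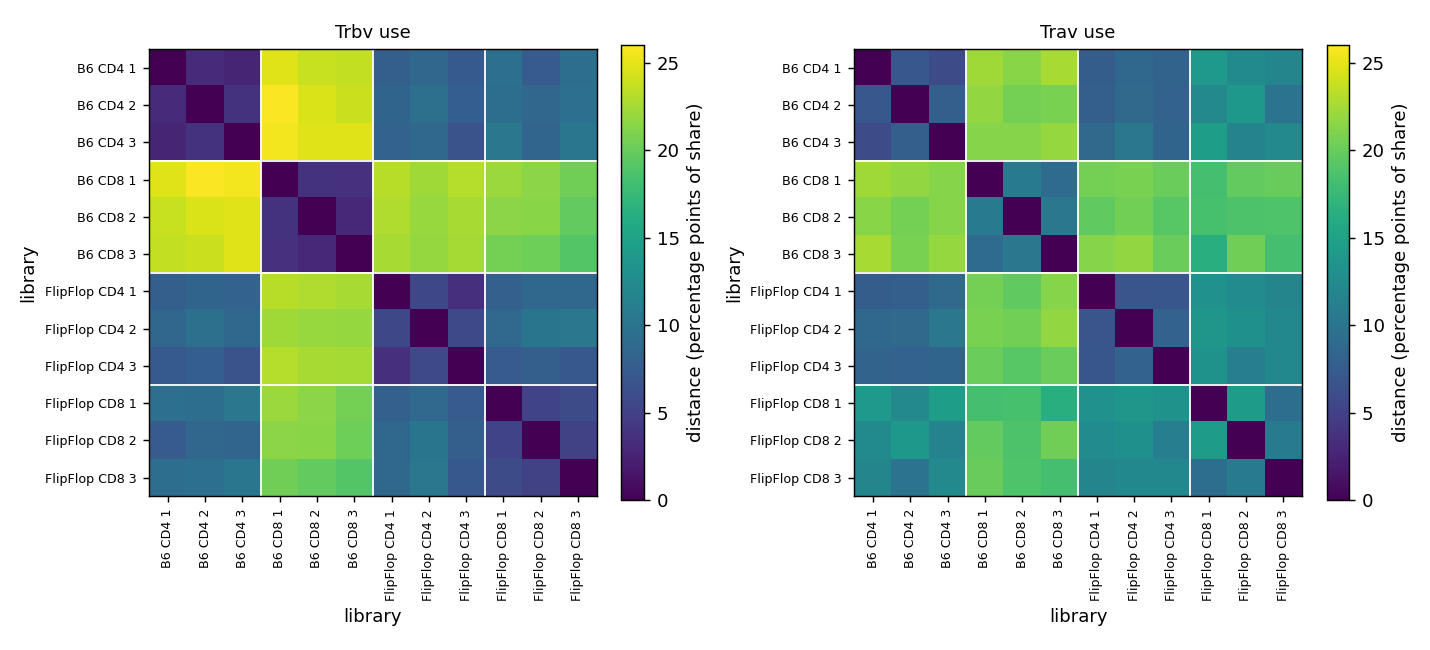
Distance in V use between all pairs of 12 libraries, in percentage points of share, for Trbv (left) and Trav (right), with white lines between the 4 groups. The B6 CD8 rows are bright against all other groups (Trbv means 20.7 to 24.6 points), and the blocks among B6 CD4, FlipFlop CD4 and FlipFlop CD8 are dark (Trbv means 8.12 to 9.22 points).

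Tests were limma fits over 11595 genes with Benjamini-Hochberg adjustment over all of them, with a call at adjusted p below 0.05, and differences are log2 of share-scaled CPM plus 0.5. Between B6 CD4 and B6 CD8, 16 of 21 Trbv segments were called (10 higher in CD4, 6 higher in CD8), whereas 25.4% of all tested genes were called in this comparison. The same test called 34 of 83 Trav segments, 19 higher in CD4 and 15 in CD8. The median absolute difference of the Trbv segments was 0.63 and that of the Trav segments 0.34, beside 0.17 over all genes.

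The largest log2 differences in B6 were those of Trbv12-1 and Trbv12-2, with that of Trbv31 (given below) close to the latter in size. Trbv12-1 made up 1.15, 1.10 and 1.26% (B6 CD4) and 5.63, 6.01 and 5.85% (B6 CD8), against 0.387, 0.485 and 0.819% (FlipFlop CD4) and 1.72, 2.01 and 2.16% (FlipFlop CD8). All B6 CD8 libraries were above, and all FlipFlop CD4 libraries below, every other library. The B6 CD4 minus CD8 difference was -2.23 ± 0.19 (SE, adjusted p = 2.26e-06) and the FlipFlop difference -1.69 ± 0.19 (SE, adjusted p = 1.96e-05), so that CD8 T cells had the higher share in both strains. As a test of the difference between the strains, the lineage effect (defined with its counts later in the text) was not called, at -0.27 ± 0.13 (SE, adjusted p = 0.124). The share of Trbv12-2 was 1.30, 1.36 and 1.33% (B6 CD4) and 4.96, 6.03 and 5.71% (B6 CD8), against 1.20, 1.26 and 1.53% (FlipFlop CD4) and 2.23, 2.47 and 3.08% (FlipFlop CD8). Here B6 CD4 and FlipFlop CD4 overlapped, FlipFlop CD8 lay above both, and B6 CD8 was highest. The difference was -1.98 ± 0.13 (SE, adjusted p = 2.35e-07) in B6 and -0.91 ± 0.13 (SE, adjusted p = 0.00014) in FlipFlop. Of all Trbv CPM, both Trbv12 segments together took 11.4 ± 0.738% (B6 CD8), 4.56 ± 0.647% (FlipFlop CD8), 2.5 ± 0.0783% (B6 CD4) and 1.89 ± 0.405% (FlipFlop CD4).

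Trbv29, Trbv14 and Trbv17 were high in B6 CD8 alone of the 4 groups. Trbv29 made up 2.5, 2.62 and 2.14% (B6 CD4) and 7.62, 7.86 and 7.52% (B6 CD8), against 3.50, 2.69 and 3.40% (FlipFlop CD4) and 3.34, 3.43 and 4.98% (FlipFlop CD8). The B6 CD8 values did not overlap with any other group, and both FlipFlop groups overlapped with each other. Its difference was -1.63 ± 0.15 (SE, adjusted p = 4.56e-06) in B6 and -0.27 ± 0.15 (SE, adjusted p = 0.194) in FlipFlop. Trbv14 made up 2.46, 2.74 and 2.42% (B6 CD4) and 7.11, 6.64 and 6.45% (B6 CD8), against 2.77, 3.12 and 2.93% (FlipFlop CD4) and 2.13, 2.49 and 2.11% (FlipFlop CD8). Its CD4 minus CD8 difference was -1.37 ± 0.089 (SE, adjusted p = 2.57e-07) in B6 and 0.38 ± 0.089 (SE, adjusted p = 0.00644) in FlipFlop, which is a call in the opposite direction. Trbv17 made up 1.36, 1.53 and 1.36% (B6 CD4) and 4.22, 3.67 and 3.60% (B6 CD8), against 1.45, 1.36 and 1.34% (FlipFlop CD4) and 1.58, 1.59 and 1.75% (FlipFlop CD8), and B6 CD8 again did not overlap with the other 9 libraries. The difference was -1.37 ± 0.093 (SE, adjusted p = 3.51e-07) in B6 and -0.23 ± 0.093 (SE, adjusted p = 0.0876) in FlipFlop.

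These 5 segments (Trbv12-1, Trbv12-2, Trbv14, Trbv17 and Trbv29) were chosen by their B6 values and together held 29.6 ± 0.552% of Trbv in B6 CD8. Elsewhere they held 12.4 ± 1.57% (FlipFlop CD8), 9.41 ± 0.558% (FlipFlop CD4) and 8.88 ± 0.430% (B6 CD4). Trbv16 was the last of the 6 Trbv segments higher in B6 CD8. It held 9.12 ± 0.181% (B6 CD8) and 6.31 ± 0.293% (B6 CD4), a CD4 minus CD8 difference of -0.53 ± 0.068 (SE, adjusted p = 9.54e-05). FlipFlop CD4 and CD8 held 8.21 ± 0.608% and 7.56 ± 0.165% of it, between the B6 groups.

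On the other side stood Trbv31, Trbv2 and Trbv5. Trbv31 made up 9.34, 9.26 and 9.16% (B6 CD4) and 2.20, 2.22 and 2.51% (B6 CD8), against 7.73, 7.30 and 7.59% (FlipFlop CD4) and 6.54, 6.42 and 6.80% (FlipFlop CD8). The B6 CD8 libraries were far below the others, and none of the 4 groups overlapped. The CD4 minus CD8 difference was 1.96 ± 0.068 (SE, adjusted p = 1.64e-09) in B6 and 0.19 ± 0.068 (SE, adjusted p = 0.049) in FlipFlop. The FlipFlop call was lost when any 1 FlipFlop library was left out, or B6 CD4 library 2 or 3 or B6 CD8 library 1 or 2, when all genes were tested, and with the replicate number as a block (adjusted p = 0.0550). Trbv2 made up 5.25, 6.05 and 5.27% (B6 CD4) and 2.53, 2.26 and 2.41% (B6 CD8), against 4.57, 4.20 and 4.69% (FlipFlop CD4) and 4.25, 4.05 and 4.68% (FlipFlop CD8), with differences of 1.17 ± 0.087 (SE, adjusted p = 8.35e-07) in B6 and 0.053 ± 0.087 (SE, adjusted p = 0.697) in FlipFlop. The share of Trbv5 was 7.36, 7.44 and 7.80% (B6 CD4) and 3.52, 3.82 and 4.39% (B6 CD8), against 7.16, 8.09 and 6.77% (FlipFlop CD4) and 5.96, 7.18 and 6.29% (FlipFlop CD8). Its differences were 0.93 ± 0.099 (SE, adjusted p = 1.87e-05) in B6 and 0.18 ± 0.099 (SE, adjusted p = 0.208) in FlipFlop, and for both segments the FlipFlop groups overlapped. Together, Trbv2, Trbv5 and Trbv31 held 8.62 ± 0.601% of Trbv in B6 CD8, against group means of 17.4 to 22.3% elsewhere.

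**Figure D2:**
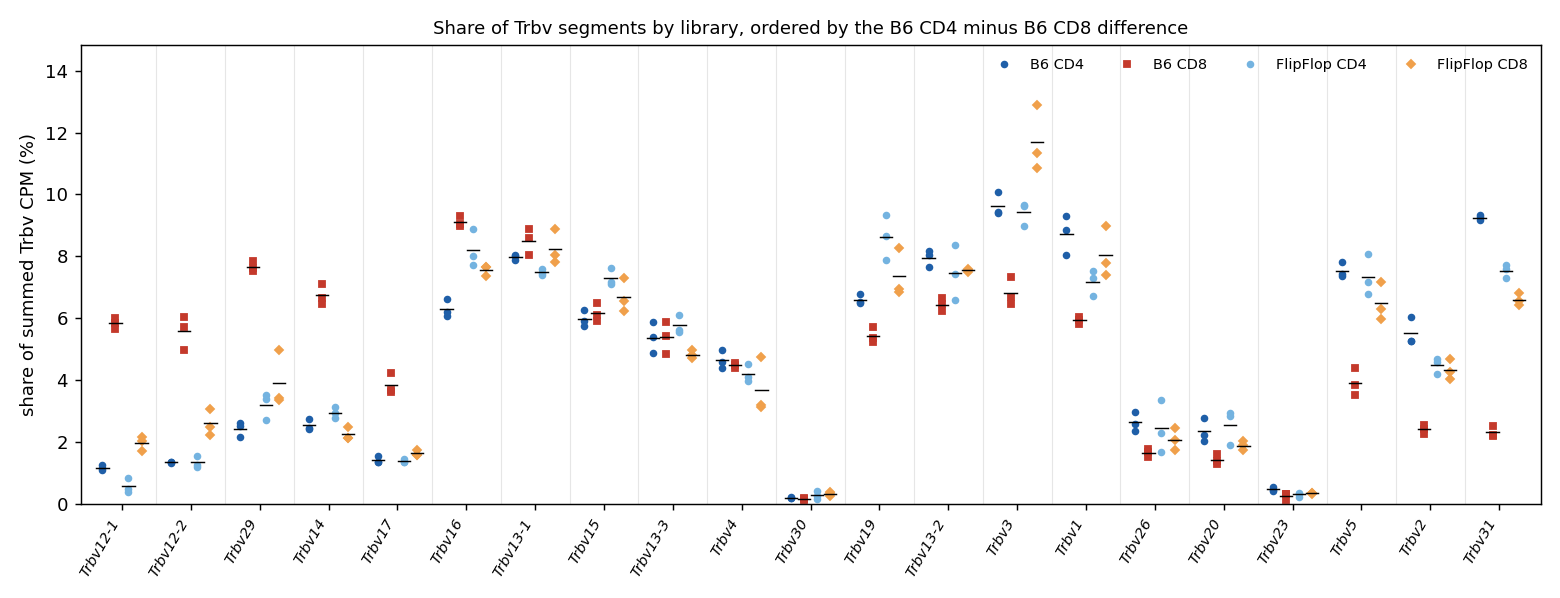
Share of each of 21 Trbv segments in the summed Trbv CPM (%, vertical axis) in each library, with a bar at each group mean of 3 libraries. From left to right the B6 CD4 minus CD8 difference goes from negative to positive, and the B6 CD8 squares lie apart from the other groups at both ends (Trbv12-1 5.83% and Trbv31 2.31% on average).

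The remaining Trbv segments included those used most. Trbv3, the segment with the highest mean share, made up 9.42, 10.1 and 9.43% (B6 CD4) and 6.46, 7.34 and 6.67% (B6 CD8), against 9.62, 9.0 and 9.65% (FlipFlop CD4) and 12.9, 11.3 and 10.8% (FlipFlop CD8). It was higher in CD4 than CD8 in B6, by 0.49 ± 0.079 (SE, adjusted p = 0.000485), and lower in CD4 than CD8 in FlipFlop, with a difference of -0.31 ± 0.079 (SE, adjusted p = 0.0104). Trbv1, the most 5′ segment of the locus, held 8.73 ± 0.637% (B6 CD4) and 5.93 ± 0.103% (B6 CD8), a difference of 0.55 ± 0.084 (SE, adjusted p = 0.000367), beside -0.16 ± 0.084 (SE, adjusted p = 0.181) in FlipFlop. Trbv19 was at 8.63 ± 0.727% (FlipFlop CD4) and 7.35 ± 0.788% (FlipFlop CD8), and at 6.59 ± 0.170% (B6 CD4) and 5.42 ± 0.258% (B6 CD8), with every FlipFlop library above every B6 library. Its strain effect (the mean of both FlipFlop groups minus that of both B6 groups) was 0.40 ± 0.062 (SE, adjusted p = 0.000766). Trbv15 was also higher in FlipFlop, with a strain effect of 0.20 ± 0.053 (SE, adjusted p = 0.0159). Of the low segments, Trbv20, Trbv23 and Trbv26 were higher in B6 CD4, with mean shares over all libraries of 2.05, 0.334 and 2.20%, and none of them was called in FlipFlop. Trbv4 (4.25%) was called in no comparison, and Trbv30 (0.233%), the lowest of all, was higher in FlipFlop by 0.52 ± 0.16 (SE, adjusted p = 0.03).

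The 3 Trbv13 segments, which are 86.1 to 91.8% identical to one another, showed no called difference in B6 when summed. Together they had 21.3 ± 0.239% (B6 CD4) and 20.3 ± 0.939% (B6 CD8), against 20.7 ± 0.725% (FlipFlop CD4) and 20.6 ± 0.704% (FlipFlop CD8), a difference of 0.069 ± 0.058 (SE, adjusted p = 0.444) in B6. Trbv13-1 had differences of -0.088 ± 0.066 (SE, adjusted p = 0.384) in B6 and -0.13 ± 0.066 (SE, adjusted p = 0.151) in FlipFlop. Trbv13-2 was higher in B6 CD4 by 0.30 ± 0.080 (SE, adjusted p = 0.0153), a call lost without B6 CD4 library 2 or B6 CD8 library 3. Trbv13-3 was called in FlipFlop, by 0.25 ± 0.089 (SE, adjusted p = 0.0472), and that call was lost without any 1 FlipFlop library or B6 CD8 library 2, and with the replicate number as a block (adjusted p = 0.0570). In B6 its difference was -0.0025 ± 0.089 (SE, adjusted p = 0.987). Per base of transcript, which allows segments to be compared, the segment with the highest share of the length-scaled total was Trbv13-2 in B6 CD4 (9.31%) and FlipFlop CD4 (8.75%), Trbv13-1 in B6 CD8 (9.0%) and Trbv3 in FlipFlop CD8 (10.2%). The next were Trbv31 in B6 CD4 (8.86%), Trbv16 in B6 CD8 (8.88%), Trbv3 in FlipFlop CD4 (8.24%) and Trbv13-1 in FlipFlop CD8 (8.97%), and the order of such neighbours was not tested.

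Between FlipFlop CD4 and FlipFlop CD8, 6 of 21 Trbv and 3 of 83 Trav segments were called, beside 31.3% of all tested genes. The median absolute difference was 0.20 over Trbv, 0.17 over Trav and 0.19 over all genes. The difference in V use between strains was tested segment by segment, as the lineage effect. It contrasts B6 CD4 and FlipFlop CD8, in which the Cd4 locus is the one expressed, with B6 CD8 and FlipFlop CD4, and is at the same time the test of whether the CD4 minus CD8 difference was equal in both strains. It called 11 of 21 Trbv and 18 of 83 Trav segments, beside 39.2% of all genes. The coreceptor effect, the mean of the CD4 minus CD8 differences of both strains, called 11 Trbv and 16 Trav segments, beside 5.37% of all genes.

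Over the 21 Trbv segments the B6 and FlipFlop CD4 minus CD8 differences, which share no library, had a Pearson r of 0.61, as a description across segments whose shares sum to a fixed total. The spread of the differences (SD over segments) was 1.09 in B6 and 0.47 in FlipFlop. All 16 Trbv segments called in B6 had a smaller absolute difference in FlipFlop, with medians of 0.85 in B6 and 0.21 in FlipFlop. Of these 16, 10 had the same sign in FlipFlop, 3 were called in the same direction (Trbv12-1, Trbv12-2 and Trbv31) and 2 in the opposite one (Trbv14 and Trbv3). The members of this set were chosen by their B6 differences, so their medians are a description. Over the 83 Trav segments r was 0.34, with an SD of 0.62 in B6 and 0.42 in FlipFlop.

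**Figure D3:**
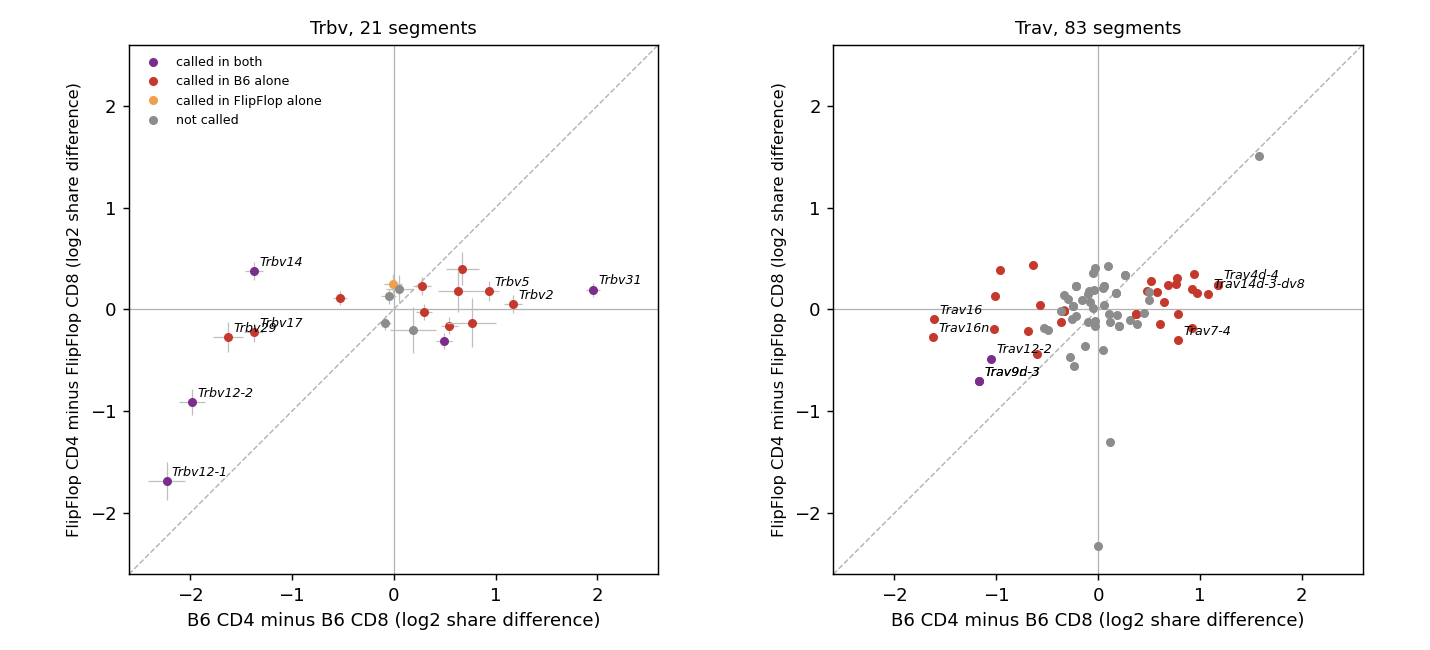
CD4 minus CD8 difference in log2 share in B6 (horizontal) and FlipFlop (vertical) for 21 Trbv (left, bars are SE) and 83 Trav segments (right), with colours for calls and a dashed line of equality. Most called segments lie near the horizontal zero line, and Trbv12-1 (-2.23 in B6 and -1.69 in FlipFlop) lies nearest to the dashed line among the Trbv segments called in both.

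Each FlipFlop group was then set beside the B6 groups. FlipFlop CD4 differed from B6 CD4 in 7 of 21 Trbv and 3 of 83 Trav segments, beside 28.3% of all genes, and from B6 CD8 in 11 Trbv and 25 Trav segments, beside 7.97% of all genes. FlipFlop CD8 differed from B6 CD4 in 7 Trbv and 6 Trav segments, beside 27.3% of all genes, and from B6 CD8 in 14 Trbv and 29 Trav segments, beside 44.7% of all genes. These comparisons share libraries. Of these 4 comparisons between strains, FlipFlop CD4 against B6 CD8 had the fewest calls over all genes, whereas over V segments FlipFlop CD4 against B6 CD4 had the fewest. The strain effect called 12 Trbv and 17 Trav segments, beside 31.2% of all genes, and the Trbv segments with the largest effects were Trbv12-1 at -1.26 ± 0.13 (SE, adjusted p = 5.03e-05), Trbv14 at -0.67 ± 0.063 (SE, adjusted p = 2.01e-05), Trbv17 at -0.60 ± 0.066 (SE, adjusted p = 7.31e-05) and Trbv31 at 0.59 ± 0.048 (SE, adjusted p = 5.81e-06).

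For many segments all 3 B6 CD8 libraries lay outside the range of the 9 others. This was so for 13 of 21 Trbv segments, 6 of them above (Trbv12-1, Trbv12-2, Trbv14, Trbv16, Trbv17 and Trbv29) and 7 below (Trbv1, Trbv2, Trbv3, Trbv5, Trbv19, Trbv20 and Trbv31), and for 32 of 83 Trav segments, beside 10.7% of all genes. All 3 libraries of FlipFlop CD8 lay outside the range of the others for 1 Trbv and 2 Trav segments, beside 21.0% of all genes. The effective number of Trbv segments (inverse Simpson index, which counts equally used segments) was 16.4 ± 0.103 in B6 CD8, against 14.9 to 15.0 on average in the other groups, and no B6 CD8 library overlapped with them. With Trbv subgroups counted in place of segments the groups overlapped, at 10.6 ± 0.259 in B6 CD8 and 10.3 to 10.5 on average elsewhere. Over Trav segments B6 CD8 was lowest on average (58.1 ± 0.555), with libraries that overlapped those of both CD4 groups, and FlipFlop CD8 highest (61.1 ± 0.570), whereas over Trav subgroups B6 CD8 was highest on average (10.1 ± 0.144) and overlapped with FlipFlop CD8.

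Trav segments lie in a locus that holds duplicated blocks, so that many have a near-identical copy with a d or n in its name. Of 96 listed Trav segments, 61 belong to 25 sets with at least 97% sequence identity, and 13 pairs had the same value in every library, all of them with identical or contained sequences. Reads from identical copies cannot be told apart. How reads shared by near-identical copies were assigned is not given, so values for the segments of these sets are uncertain one by one. With near-identical segments summed, 25 of 57 Trav sets were called in B6 and 3 in FlipFlop, beside 25.4% and 31.3% of all genes in the fit by segment. Sequences are shown of the segments that lead the Trav results, as V exons. They are Trav12-2 (chr14:53616623-53616914), called in both strains, Trav16n (chr14:53351322-53351621), 1 of 3 near-identical Trav16 segments, and Trav14d-1 (chr14:52855867-52856166), which is the segment with the highest mean share and identical to Trav14n-1. Capitals again mark the cysteine codon.
Trav12-2: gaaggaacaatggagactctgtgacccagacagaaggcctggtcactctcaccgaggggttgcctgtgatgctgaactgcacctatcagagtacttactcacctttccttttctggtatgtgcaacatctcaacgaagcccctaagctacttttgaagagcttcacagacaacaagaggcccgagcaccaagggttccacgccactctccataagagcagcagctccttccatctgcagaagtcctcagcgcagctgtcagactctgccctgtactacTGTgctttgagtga
Trav16n: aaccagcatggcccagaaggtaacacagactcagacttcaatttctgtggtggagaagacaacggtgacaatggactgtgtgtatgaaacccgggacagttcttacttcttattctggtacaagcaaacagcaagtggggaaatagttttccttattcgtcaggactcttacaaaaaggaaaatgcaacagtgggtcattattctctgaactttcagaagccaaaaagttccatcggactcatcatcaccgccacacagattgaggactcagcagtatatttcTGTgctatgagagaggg
Trav14d-1: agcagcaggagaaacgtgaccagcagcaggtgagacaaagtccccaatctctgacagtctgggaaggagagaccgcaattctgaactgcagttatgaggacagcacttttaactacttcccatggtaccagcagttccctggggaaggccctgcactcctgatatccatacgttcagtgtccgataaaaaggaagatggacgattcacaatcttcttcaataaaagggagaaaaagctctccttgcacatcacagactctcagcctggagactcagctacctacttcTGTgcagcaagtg

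Summed by subgroup (the number in the name), the 19 Trav subgroups gave 9 calls in B6 and 1 in FlipFlop, beside the same 25.4% and 31.3% of all genes. Trav16, the subgroup with the largest difference, made up 1.99, 2.13 and 2.40% (B6 CD4) and 7.12, 6.66 and 7.08% (B6 CD8), against 2.70, 3.29 and 2.44% (FlipFlop CD4) and 3.37, 2.54 and 3.21% (FlipFlop CD8). B6 CD8 was far above the other groups, B6 CD4 lay below both FlipFlop groups without overlap, and the FlipFlop groups overlapped with each other. FlipFlop CD8 was higher than B6 CD4 by 0.44 ± 0.13 (SE, adjusted p = 0.0263), and FlipFlop CD4 minus B6 CD4 was 0.33 ± 0.13 (SE, adjusted p = 0.0721), which did not pass. The CD4 minus CD8 difference was -1.59 ± 0.13 (SE, adjusted p = 1.75e-06) in B6 and -0.11 ± 0.13 (SE, adjusted p = 0.581) in FlipFlop. Trav16n and Trav16 held 3.19 ± 0.128% and 3.0 ± 0.200% in B6 CD8, with B6 differences of -1.62 ± 0.15 (SE, adjusted p = 4.76e-06) and -1.61 ± 0.16 (SE, adjusted p = 1.17e-05). Trav12 was likewise high in B6 CD8, at 13.7 ± 0.267%, against 8.38 ± 0.325% (B6 CD4), 8.92 ± 0.708% (FlipFlop CD4) and 9.07 ± 0.617% (FlipFlop CD8). The difference was -0.70 ± 0.078 (SE, adjusted p = 2.77e-05) in B6 and -0.025 ± 0.078 (SE, adjusted p = 0.849) in FlipFlop. Trav3 and Trav8 were also higher in B6 CD8, and in neither was a FlipFlop difference called. Trav2, a subgroup of 1 segment that passed the filter only through B6 CD8, held 0.707 ± 0.0908% there and 0.257 ± 0.0851% in B6 CD4.

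Trav4, Trav14, Trav7 and Trav21 were higher in B6 CD4. Trav4 made up 6.29, 6.23 and 5.80% (B6 CD4) and 3.60, 3.01 and 3.69% (B6 CD8), against 6.66, 6.79 and 6.46% (FlipFlop CD4) and 5.20, 5.64 and 4.98% (FlipFlop CD8), and B6 CD8 was below all other libraries. It was the only Trav subgroup called in both strains, by 0.80 ± 0.090 (SE, adjusted p = 3.15e-05) in B6 and 0.32 ± 0.090 (SE, adjusted p = 0.016) in FlipFlop. Trav14, the most used subgroup, held 21.0 ± 0.974% (B6 CD4) and 16.1 ± 0.387% (B6 CD8), against 20.8 ± 0.665% (FlipFlop CD4) and 18.5 ± 1.13% (FlipFlop CD8). Its B6 difference was 0.38 ± 0.065 (SE, adjusted p = 0.000922) and its FlipFlop difference 0.17 ± 0.065 (SE, adjusted p = 0.0707). Within it, Trav14d-1 and Trav14n-1 had a B6 difference of 0.059 ± 0.11 (SE, adjusted p = 0.74), whereas Trav14d-3-dv8, whose name marks a segment that can also serve the delta chain, was higher in B6 CD4 by 1.08 ± 0.12 (SE, adjusted p = 3.75e-05).

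**Figure D4:**
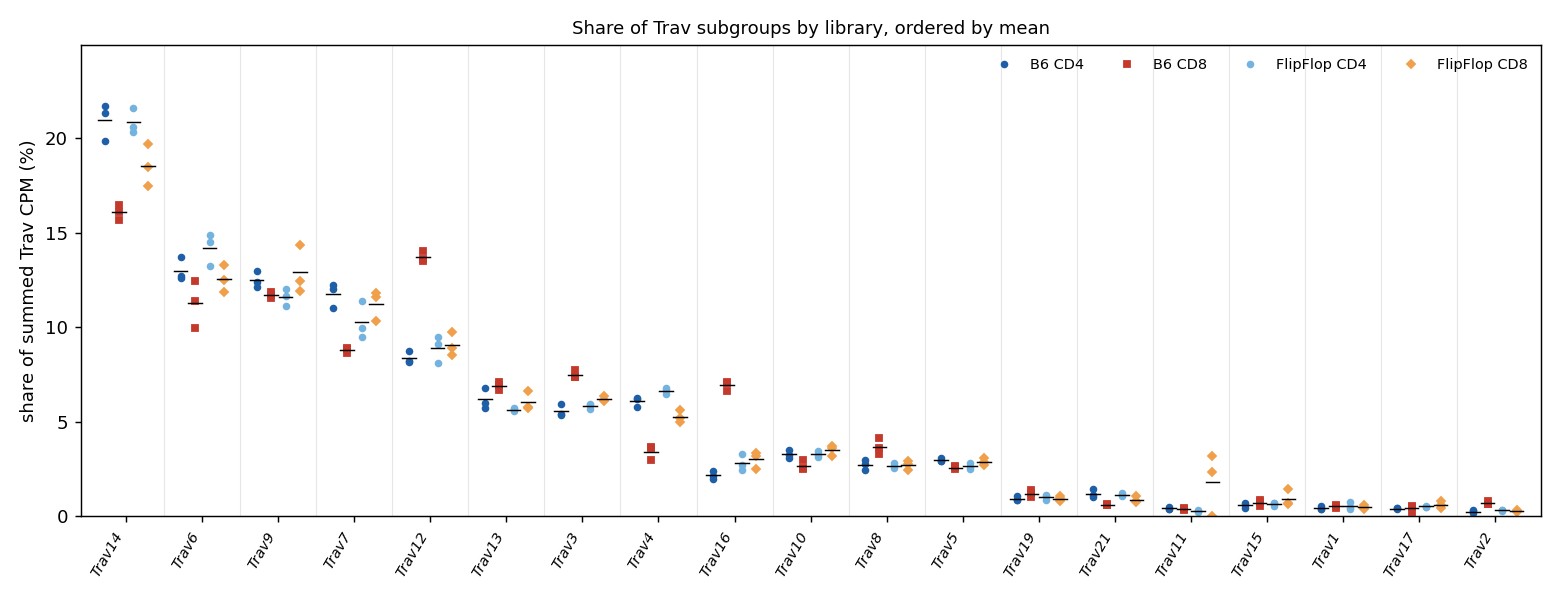
Share of each of 19 Trav subgroups in the summed Trav CPM (%, vertical axis) in each library, with a bar at each group mean of 3 libraries, ordered by mean. B6 CD8 squares lie above the other groups for Trav12 (13.7%) and Trav16 (6.95%) and below them for Trav14 (16.1%) and Trav4 (3.43%).

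Single Trav segments called in FlipFlop were 3, all higher in CD8 and all higher in CD8 in B6 too. Trav12-2 made up 1.53, 1.48 and 1.71% (B6 CD4) and 3.51, 3.43 and 3.44% (B6 CD8), against 1.34, 1.5 and 1.87% (FlipFlop CD4) and 1.99, 2.48 and 2.33% (FlipFlop CD8). B6 CD8 stood above FlipFlop CD8, which stood above both CD4 groups. Its difference was -1.05 ± 0.12 (SE, adjusted p = 4.56e-05) in B6 and -0.48 ± 0.12 (SE, adjusted p = 0.00999) in FlipFlop. The other two, Trav9d-3 and its identical copy Trav9n-3, each made up 0.758, 0.970 and 0.929% (B6 CD4) and 2.37, 2.15 and 2.18% (B6 CD8), against 0.970, 1.06 and 1.14% (FlipFlop CD4) and 2.58, 1.68 and 1.42% (FlipFlop CD8), with differences of -1.17 ± 0.17 (SE, adjusted p = 0.000283) in B6 and -0.70 ± 0.17 (SE, adjusted p = 0.00822) in FlipFlop. The FlipFlop CD8 values overlapped with those of B6 CD8 and lay above both CD4 groups, and the difference did not pass as a lineage effect, at -0.23 ± 0.12 (SE, adjusted p = 0.159). The coreceptor effects of Trav9d-3 and Trav12-2 were -0.94 ± 0.12 (SE, adjusted p = 0.000938) and -0.77 ± 0.087 (SE, adjusted p = 0.000353).

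Among the other highly used Trav segments, Trav7-4 made up 2.70, 2.74 and 2.66% (B6 CD4) and 1.5, 1.30 and 1.67% (B6 CD8), against 2.15, 2.18 and 3.0% (FlipFlop CD4) and 3.14, 2.91 and 3.05% (FlipFlop CD8). It was higher in B6 CD4 by 0.79 ± 0.13 (SE, adjusted p = 0.0006), and in FlipFlop the difference was -0.30 ± 0.13 (SE, adjusted p = 0.0949). Trav9n-4 took 3.72 ± 0.112% (B6 CD4) and 2.14 ± 0.446% (B6 CD8), a difference of 0.77 ± 0.13 (SE, adjusted p = 0.00103). Trav4d-4, identical to Trav4n-4, differed by 1.18 ± 0.16 (SE, adjusted p = 0.000115) in B6 and 0.24 ± 0.16 (SE, adjusted p = 0.28) in FlipFlop. Trav3-3 and Trav14-2 were called in B6 too, at -0.36 ± 0.10 (SE, adjusted p = 0.0176) and 0.48 ± 0.13 (SE, adjusted p = 0.0191), the first call lost without B6 CD4 library 3 or B6 CD8 library 2 and the second without B6 CD4 library 2 or B6 CD8 library 1 or 3. Trav9-2 and Trav10 were not called, at 0.19 ± 0.090 (SE, adjusted p = 0.164) and 0.38 ± 0.16 (SE, adjusted p = 0.0964) in B6. Trav12n-3 ranged from 0.467 to 3.80% and was called in B6 at -0.96 ± 0.32 (SE, adjusted p = 0.0469), but its V exon equals that of Trav12d-3, that copy held reads in 3 libraries and was at 0 in the other 9, and the call was lost without any 1 library of B6 CD4 or FlipFlop CD4 or B6 CD8 library 1 or 3, or with a pseudocount of 0.1. Summed with Trav12d-3, which was done after seeing the data, it held 3.80, 3.85 and 3.73% in B6 CD8 and 1.25 to 1.67% in the other 9 libraries. The B6 difference of the sum was -1.28 ± 0.11 (SE, adjusted p = 2.67e-06), and the FlipFlop difference was -0.14 ± 0.11 (SE, adjusted p = 0.357).

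Position in the Trav locus was described without a test. Of 3 sets of 32 segments by distance from Trac, the nearest set held 43.8 ± 0.196% in B6 CD4, 41.1 ± 0.632% in B6 CD8, 42.0 ± 0.538% in FlipFlop CD4 and 42.4 ± 1.71% in FlipFlop CD8 of Trav CPM. The median B6 CD4 minus CD8 difference was 0.076 in the nearest, 0.0058 in the middle and -0.027 in the farthest set, over 30, 26 and 27 tested segments. The FlipFlop medians of the same sets were -0.032, 0.16 and 0.034, in another order.

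Levels of the constant segments give the amount of each chain. Trac stood at 1069, 920 and 860 CPM (B6 CD4) and 657, 664 and 657 CPM (B6 CD8), against 708, 691 and 676 CPM (FlipFlop CD4) and 754, 655 and 649 CPM (FlipFlop CD8). B6 CD4 was above all other groups, and its library 1 was highest. FlipFlop CD8 overlapped with FlipFlop CD4 and with B6 CD8, and these latter groups did not overlap with each other. The B6 difference was 0.52 ± 0.088 (SE, adjusted p = 0.000772) and the FlipFlop difference 0.016 ± 0.088 (SE, adjusted p = 0.92), a lineage effect of 0.25 ± 0.062 (SE, adjusted p = 0.00629). Trbc1 stood at 726, 531 and 553 CPM (B6 CD4) and 485, 460 and 488 CPM (B6 CD8), against 525, 490 and 523 CPM (FlipFlop CD4) and 475, 503 and 489 CPM (FlipFlop CD8), with a B6 difference of 0.32 ± 0.10 (SE, adjusted p = 0.0336). This difference was 0.18, still called, without B6 CD4 library 1, which is far above the other libraries, and its call was lost without any 1 library of B6 CD8 (adjusted p = 0.0695 to 0.115). Trbc2 stood at 1728, 1281 and 1269 CPM (B6 CD4) and 1156, 1088 and 1111 CPM (B6 CD8), against 1175, 1060 and 979 CPM (FlipFlop CD4) and 1260, 1066 and 1043 CPM (FlipFlop CD8), with a B6 difference of 0.34 ± 0.12 (SE, adjusted p = 0.0691) that did not pass. Its B6 CD4 library 1 was again the highest of all, and the difference was 0.19 (adjusted p = 0.182) without it, whereas without B6 CD4 library 3 it was 0.41 (adjusted p = 0.0445). For both, the FlipFlop differences did not pass, at 0.068 ± 0.10 (SE, adjusted p = 0.666) and -0.066 ± 0.12 (SE, adjusted p = 0.738). Trbc1 held 27.4 to 34.8% of Trbc reads over the 12 libraries.

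Summed V levels were also highest in B6 CD4 on average. Trbv summed to 614, 527 and 549 (B6 CD4) and 490, 476 and 492 (B6 CD8), against 501, 463 and 468 (FlipFlop CD4) and 539, 507 and 493 (FlipFlop CD8) CPM. Trav summed to 296, 319 and 307 (B6 CD4) and 228, 245 and 237 (B6 CD8), against 255, 232 and 241 (FlipFlop CD4) and 259, 240 and 238 (FlipFlop CD8) CPM. B6 CD4 was highest for Trav without overlap, and for Trbv it overlapped with FlipFlop CD8. The fit on levels, in which these totals enter, called 44 of 110 members for lineage (36 higher in B6 CD4 and FlipFlop CD8), beside 39.3% of all genes, 39 for coreceptor (28 higher in CD4), beside 5.49%, and 33 for strain (12 higher in FlipFlop), beside 31.2%. The share was used for V segments throughout.

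The chains are held at the surface by CD3 and zeta proteins, which were followed as partners. Of Cd3d, Cd3e, Cd3g and Cd247 (zeta), only Cd247 was called in B6, higher in CD4 by 0.42 ± 0.071 (SE, adjusted p = 0.000821). In FlipFlop Cd3d and Cd3e were called, higher in CD4 by 0.40 ± 0.13 (SE, adjusted p = 0.0336) and 0.21 ± 0.071 (SE, adjusted p = 0.0392). Ptcra, the pre-TCR alpha chain of thymocytes, and the recombinase genes Rag1 and Rag2 were not listed. Dntt, which adds bases at the joins between segments, stood at 14.6 ± 3.25 CPM (B6 CD4) and 7.29 ± 1.15 CPM (FlipFlop CD4), the highest and lowest group means, and its difference was 0.46 ± 0.17 (SE, adjusted p = 0.0772) in B6 and -0.59 ± 0.17 (SE, adjusted p = 0.0218) in FlipFlop.

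Gamma-delta segments were few and low. Trdc stood at 11.4, 10.8 and 8.76 CPM (B6 CD4) and 7.90, 7.04 and 7.02 CPM (B6 CD8), against 7.52, 8.70 and 7.32 CPM (FlipFlop CD4) and 6.49, 7.28 and 7.32 CPM (FlipFlop CD8). It was higher in B6 CD4 than B6 CD8 by 0.46 ± 0.11 (SE, adjusted p = 0.00962), whereas the FlipFlop difference was 0.15 ± 0.11 (SE, adjusted p = 0.375). Trdv2-2 lay between 1.02 and 1.92 CPM with no call in either strain, and Trdv1 lay between 0.449 and 1.05 CPM and was not tested. Trgv2 (chr13:19336573-19337167, minus strand), a gamma chain V segment, was the exception. It stood at 0.188, 0.355 and 0.337 CPM (B6 CD4) and 0.15, 0.280 and 0.530 CPM (B6 CD8), against 0.263, 0.0725 and 0.0744 CPM (FlipFlop CD4) and 1.74, 1.46 and 1.46 CPM (FlipFlop CD8), which is 44 to 54 reads in FlipFlop CD8 and 2 to 16 in the other libraries. No FlipFlop CD8 library overlapped with the others, and Trgv2 was tested only because these 3 libraries passed the filter. Its CD4 minus CD8 difference was -0.028 ± 0.20 (SE, adjusted p = 0.941) in B6 and -1.70 ± 0.20 (SE, adjusted p = 4.18e-05) in FlipFlop. FlipFlop CD4 libraries 2 and 3 held 2 reads each, under the level of 3 reads, so that this difference depends on the pseudocount of 0.5.

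Trav11d (chr14:52824357-52824912), a segment of the invariant NKT cell receptor family, stood at 1.24, 1.61 and 1.26 CPM (B6 CD4) and 0.786, 0.960 and 1.06 CPM (B6 CD8), against 0.624, 0.652 and 0.818 CPM (FlipFlop CD4) and 0, 7.64 and 5.54 CPM (FlipFlop CD8). FlipFlop CD8 libraries 2 and 3 held 231 and 194 reads and library 1 none, whereas the other groups held 18 to 50. Its copy Trav11 is identical over 342 bases and is not listed in the table, so the 0 cannot be read as absence, and no comparison was called. Trav1, used by MAIT cells, had shares of 0.372 to 0.771% with a B6 difference of -0.16 ± 0.21 (SE, adjusted p = 0.637) and a FlipFlop difference of 0.097 ± 0.21 (SE, adjusted p = 0.771).

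The summed NKT and MAIT, gamma-delta and regulatory T cell markers were highest in FlipFlop CD8, with NKT and MAIT and gamma-delta members that differed in order. Myeloid markers (4 of 6 listed) reached their highest sums in B6 CD4 (84.8 to 97.6 CPM), most of it Cst3. They overlapped with FlipFlop CD8 (70.6 to 86.4 CPM), where Csf1r had its highest group mean. Immature thymocyte markers (2 of 5 listed, Dntt and Cd1d1) were also highest in B6 CD4 (43.0 to 60.8 CPM), most of it Cd1d1. NKT and MAIT markers (4 of 4 listed: Zbtb16, Klrb1c, Il18rap and Slamf1) summed to 71.2 to 95.4 CPM in FlipFlop CD8, 32.4 to 48.4 in B6 CD4, 41.2 to 46.7 in B6 CD8 and 19.2 to 23.9 in FlipFlop CD4. Zbtb16, the defining factor of NKT cells, was 0.263, 0.323 and 0.0613 CPM (B6 CD4) and 0, 0 and 0.0663 CPM (B6 CD8), against 0, 0 and 0 CPM (FlipFlop CD4) and 4.31, 10.2 and 9.29 CPM (FlipFlop CD8). Klrb1c and Slamf1 also had their highest group mean in FlipFlop CD8, whereas Il18rap was highest in B6 CD8, at 31.6 ± 1.92 CPM against 22.2 ± 12.6 CPM for FlipFlop CD8. Gamma-delta markers (6 of 7 listed, Sox13 not) summed to 86.0 to 98.1 CPM in FlipFlop CD8, 38.5 to 61.1 in B6 CD4, 7.45 to 8.80 in B6 CD8 and 4.57 to 5.75 in FlipFlop CD4. In FlipFlop CD8 most of this sum was Maf (81.1 ± 3.49 CPM), and Il23r and Il17re also had their highest group mean there. Cd163l1 was instead highest in B6 CD8, at 5.70 ± 0.877 CPM against 0.317 ± 0.140 CPM for FlipFlop CD8, and Blk was highest in B6 CD4, at 2.12 ± 0.446 CPM against 1.52 ± 0.517 CPM. Regulatory T cell markers (4 of 4: Foxp3, Il2ra, Ikzf2 and Ctla4) summed to 709 to 864 CPM in FlipFlop CD8 and 251 to 329 in B6 CD4, against 12.4 to 26.2 in B6 CD8 and FlipFlop CD4. The part of these cells in the V shares was not tested.

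**Figure D5:**
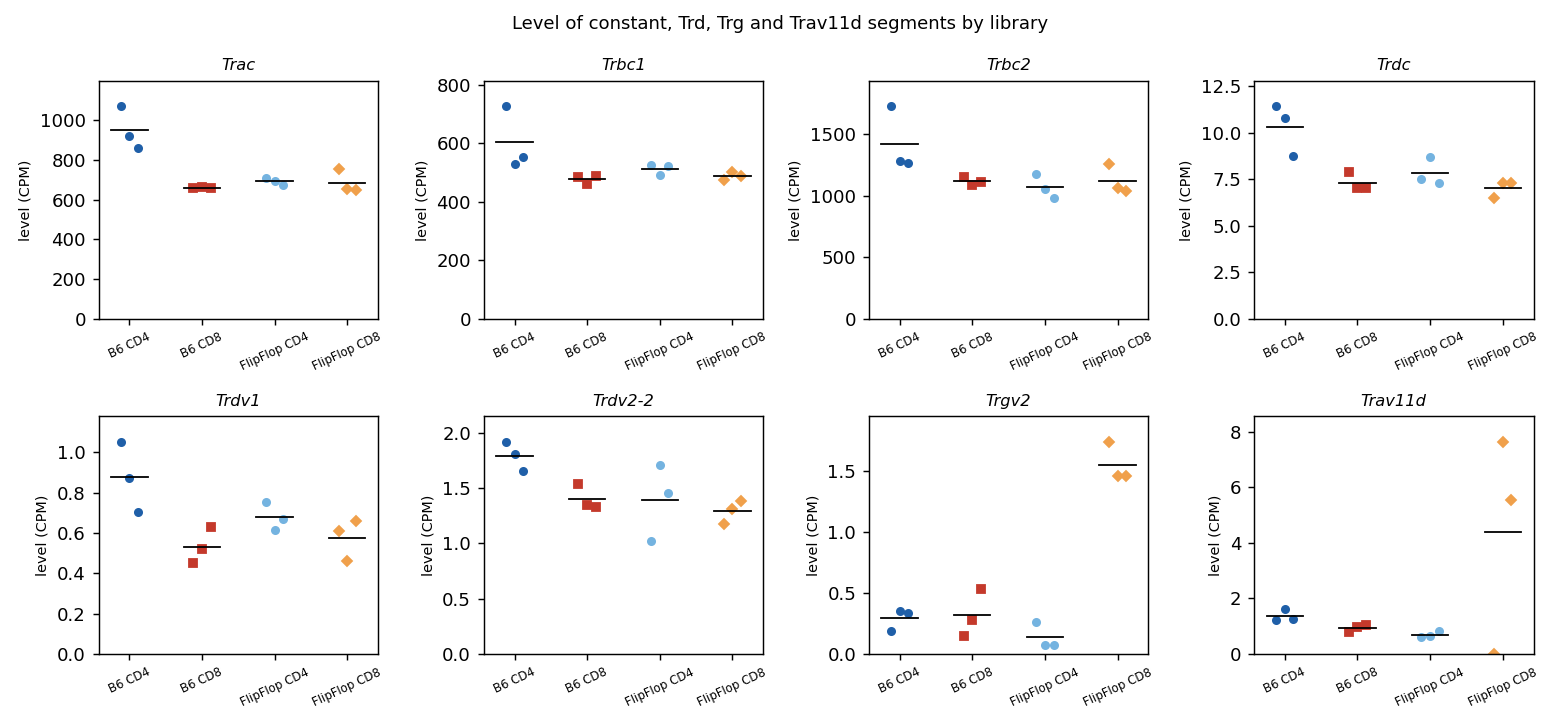
Level (CPM, vertical axis from 0) of Trac, Trbc1, Trbc2, Trdc, Trdv1, Trdv2-2, Trgv2 and Trav11d in each library by group, with a bar at the mean of 3 libraries. Trac is highest in B6 CD4 (949 CPM on average), Trgv2 is highest in FlipFlop CD8 (1.46 to 1.74 CPM), and 1 of 3 FlipFlop CD8 libraries is at 0 for Trav11d.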

How the data were processed

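RNA was extracted from CD4 and CD8 T cells that had been electronically sorted from LN, amplified with a low-input SMARTer kit and sequenced as paired ends. The study's methods name STAR and the mm10 genome, whereas the submitters' processing notes name Trimmomatic and TopHat, without versions. How reads were counted, on which annotation, with which strand setting and how reads shared by copies were assigned is not given in the sources used here. The deposited values, which the authors made before this work, are a signal per gene, namely CPM rescaled by a factor per library, since columns sum to 875501 to 1081790 and low values are steps of 0.01 read. Of values under 100 CPM, 84.8 to 86.4% were whole reads (within 0.005 read), so that no count model was used. A level of 3 reads corresponded to 0.0857 to 0.120 CPM, which covers counting error only.

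A gene was kept if 3 or more libraries reached 1 CPM. For shares, Trav and Trbv CPM were scaled so that each chain had the same total in every library. log2(value + 0.5) was fitted with limma 3.58.1 in R 4.3.3 over all 12 libraries with 4 group means (8 residual degrees of freedom) and Benjamini-Hochberg adjustment over 11595 genes. Fold changes of low genes are understated on this scale. Distances and summed shares carry no test. The fit was tested on simulated data.

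Groups came from the labels, which also number the libraries 1 to 3. Subtracting group means, like-numbered CD4 and CD8 libraries correlated across genes at 0.443, 0.271 and 0.513 in FlipFlop and at 0.184, 0.0887 and 0.352 in B6. The strains overlapped, as B6 pair 3 (0.352) lay above FlipFlop pair 2 (0.271). Libraries with unlike numbers were not compared, so whether the numbers mark pairs was not tested in either strain. The members, gene lists and tests were chosen with earlier results of these data known. The text names the constant and gamma-delta segments, the 10 Trbv and 10 Trav segments with the highest mean share, the largest called effects (up to 6 per effect, at a mean share of at least 0.5%) and segments of NKT and MAIT cells. Other segments, and the sets of Trbv segments summed together, were named after their values were seen. Sequences and positions are from GENCODE M21 on GRCm38, and identities from edlib alignments. Alternatives were other pseudocounts, filters, scalings and thresholds, summed subgroups, the replicate block and leaving out each library.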

Additional observations from a re-analysis of the deposited data

Results flagged for a closer look

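For 18 named V segments and the levels of Trac and Trgv2, the CD4 minus CD8 difference in B6 departed from that in FlipFlop by the limma test of the difference itself (adjusted p from 2.27e-08 to 0.0497). In all, this test called 29 of 104 tested V segments, beside 39.2% of all genes. The values here are the B6 difference less the FlipFlop difference on the log2 scale. Among Trbv segments with a lower value in B6 they were -1.75 for Trbv14, -1.36 for Trbv29, -1.15 for Trbv17, -1.07 for Trbv12-2 and -0.64 for Trbv16. Those with a higher value in B6 were 0.32 for Trbv13-2, 0.71 for Trbv1, 0.76 for Trbv5, 0.80 for Trbv3 and 1.77 for Trbv31. Of these 10 Trbv segments, Trbv14 and Trbv3 were called in opposite directions in the strains. Among Trav segments the values were -1.51 for Trav16, -1.35 for Trav12n-3, -1.35 for Trav16n and -0.57 for Trav12-2 on the lower side. On the higher side they were 0.51 for Trav9n-4, 0.93 for Trav14d-3-dv8, 0.94 for Trav4d-4 and 1.09 for Trav7-4. Trav16 and Trav16n are near-identical copies, as are Trav12n-3 and the untested Trav12d-3 (values of the sum are given in the text), so that their values are uncertain one by one. The calls for Trav9n-4, Trbv13-2, Trav12n-3 and Trav12-2 were lost in 13, 8, 5 and 2 alternatives, leaving aside the threshold on fold. Their highest adjusted p in this test was 0.106, 0.0924, 0.0818 and 0.0553. Trac had a value of 0.50 for its level and Trgv2 one of 1.67, the latter from 2 to 54 reads per library. Trgv2 passed the filter only through FlipFlop CD8, where it is high, so that its test had to show a difference and is given as a description. No explanation of these differences was tested.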

How the results depend on the processing

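The threshold of p below 1e-04 and over 5-fold is left out of the following tally and is given further below. Of 1676 recomputed values of 92 named and called effects, 1533 kept their call, 143 lost it and 0 changed direction. On this tally 22 of the effects lost their call at least once. Leaving out libraries for levels within a strain was added after seeing the data, and Trgv2 could not be tested without a FlipFlop CD8 library. Counts of called segments came within 1.5 times the reported ones except as follows. With a mean of at least 5 CPM, which tests fewer segments, 14 (coreceptor), 14 (lineage), 14 (strain) and 22 (B6 CD4 minus B6 CD8) shares and 15, 20 and 14 levels (coreceptor, lineage, strain) were called. With subgroups summed the share counts were 16, 16, 15, 23 and, for FlipFlop CD4 minus FlipFlop CD8, 5. With segments that have no near-identical copy, chosen after seeing the data, they were 17 (coreceptor), 15 (lineage) and 26 (B6). At the study's own threshold of p below 1e-04 and over 5-fold, 0 segments passed for shares (coreceptor, lineage, strain and the difference within each strain) or for levels (coreceptor, lineage, strain). Of the comparisons between strains, counted after seeing the data, FlipFlop CD4 minus B6 CD8 had 1 segment past this threshold, Trbv12-1, beside 55 of all genes. The others had 0, beside 162 (FlipFlop CD4 minus B6 CD4), 344 (FlipFlop CD8 minus B6 CD8) and 47 (FlipFlop CD8 minus B6 CD4) of all genes. The limma count of the level strain effect ran from 19 to 33 when 1 library was left out, at 19 without B6 CD8 replicate 2 or FlipFlop CD8 replicate 3, and 21 without B6 CD8 replicate 3 or FlipFlop CD8 replicate 2. With the replicate block the share counts were 28 (coreceptor), 32 (lineage), 48 (B6) and 9 (FlipFlop), and 2 of the named calls, given in the text, were lost.

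The distance to B6 CD8 over that to B6 CD4 in Trav use, 2.37 for FlipFlop CD4 and 1.5 for FlipFlop CD8, was 3.12 and 2.13 with subgroups summed and 2.04 and 1.27 as a root mean square log2 difference. With near-identical segments summed, also chosen after seeing the data, it was 2.6 for FlipFlop CD4. Columns scaled to the same total moved the median strain difference of all genes to 0.10, and the strain effect of Trac was lost there, 1 of 8 alternatives that lost it. The other 7 each left out 1 library (any of B6 CD8, and libraries 2 and 3 of both FlipFlop groups). The cause of these changes was not tested. Depth limits the lowest segments, such as Trgv2 with 2 to 54 reads per library.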

Other observations

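Trav7-2 and Trav7d-2, of which the sequence of one lies within that of the other, had opposite values in libraries of the same group, and were singled out after their values were seen. Trav7-2 was listed at 0 in B6 CD8 library 3, where Trav7d-2 held 114 reads, and Trav7d-2 was at 0 in 8 libraries, in each of which Trav7-2 held 79 to 327 reads. In FlipFlop CD8 library 1, Trav7d-2 held 162.8 estimated reads and Trav7-2 held 11.2.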
